A study of Mus musculus with 36 samples.

Results

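Primary mouse prostate organoids that carried the FOXA1 variant R219S were compared with organoids that carried wild-type FOXA1, both sampled at day 1. Organoids are epithelial cultures grown from dissociated tissue. The comparison takes 3 R219S libraries and 3 wild-type (WT) libraries, 6 of the 36 in the series, chosen by construct and day alone. Both groups held the pCW construct, which makes FOXA1 joined through a 2A sequence to the red fluorescent protein DsRED when doxycycline is added at 500 ng/mL. The other groups used here are R219S and WT at day 0 and at day 11 and an empty construct (EV, named empty vehicle in the labels) at day 1, with 3 libraries each. The labels give the same doxycycline treatment for every library, the day 0 ones included, and that day 0 stands for cultures without doxycycline is known only from how the deposited data are named. Cells positive for DsRED were sorted, the labels leaving unsaid if doxycycline had been given by then, and each construct was seeded as 3 cultures that were then handled separately. A p-value therefore measures the spread between cultures that share 1 sorted population and 1 infection, and a property of that population cannot be told apart from the construct. The cells keep their own Foxa1 gene, the labels do not give the strain, age or prostate lobe, and no source used here says from which species the cDNA comes.

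FOXA1 belongs to the forkhead family, whose winged-helix domain binds DNA at short sequences that contain the GTAAA core. It is known as a pioneer factor, since it can bind its site in closed chromatin and lets other factors bind nearby. In the prostate it is high in luminal cells, the secretory layer, while basal cells are marked by p63 (Trp63) and by the keratins of stratified epithelium. In R219S an arginine of the forkhead domain is replaced by a serine, a change that has been described in prostate tumours.

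Foxa1 (gene ENSMUSG00000035451.6, chromosome 12, 57540628 to 57546916 on the minus strand of GRCm38.p6) served as the check of the labels. At day 1 the libraries stood at 419.5, 413 and 410.2 CPM (counts per 1e+06 counts of the scaled library) in WT, at 312, 303 and 311 CPM in R219S and at 227, 232 and 222 CPM in EV. All R219S libraries lay above all EV libraries and below all WT libraries. At day 0 the values were 253, 259 and 258 CPM in WT and 229, 222 and 235 CPM in R219S, groups that lay far closer together. R219S minus WT was -0.42 ± 0.06 on the log2 scale at day 1 (adjusted p = 1.6e-07, n = 3 per group), -0.17 ± 0.06 at day 0 (adjusted p = 0.026) and -0.00 ± 0.06 at day 11 (adjusted p = 1.00). Every R219S against WT difference at day 1 was thus measured between groups that also differ in Foxa1 RNA, and these counts do not measure the FOXA1 protein. Whether reads of the inserted cDNA were counted in this gene is not given in the sources used here. Foxa2, a close relative, averaged 0.0336 CPM in WT and 0.218 CPM in R219S, and Foxa3 was not among the genes tested.

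The 6 libraries held 69963035 to 74686447 counts, with 2.71% to 2.87% of them from mitochondrial genes in R219S. In WT that share was 3.54%, 2.77% and 3.58%, so that the second WT library lay with R219S; its part in the results was not tested beyond leaving it out, which changed no call of a named gene at day 1. Across 11798 genes the log2 levels of libraries of 1 group correlated at 0.9942 or more (Pearson r), and those of libraries from the different groups at 0.9196 or less (genes are not independent replicates). Epithelial identity was clear in both groups: Cdh1 and Epcam, both adhesion molecules of epithelium, were abundant, with Cdh1 at 999, 1019 and 965 CPM in WT and 995, 959 and 942 CPM in R219S, and Krt5 and Krt8 were abundant too. The prostate secretory product Pbsn and the neuroendocrine marker Chga were not among the 18176 genes tested. In bulk libraries such as these, fewer cells of a type and less RNA per cell cannot be told apart.

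After 1 day the groups differed widely. Of 18176 genes tested, 30.5% were higher in R219S and 29.1% lower (adjusted p under 0.05, Benjamini-Hochberg over all genes, edgeR quasi-likelihood test), and 7.66% were higher and 10.9% lower by at least 2-fold as well. At day 0, 23.8% were higher and 16.0% lower, so that the lines already differed at day 0. Scaled to total counts alone, the day 0 calls split as 3049 higher and 3978 lower instead of 4320 and 2911, while the day 1 calls went from 5539 and 5286 to 4754 and 6128. The difference at day 1 less the difference at day 0 passed for 19.3% of genes upward and 20.6% downward. Across 11729 genes with at least 2 CPM on average, the differences of the days correlated at a Pearson r of 0.368, a description of genes and not of replicates. As the plot of both differences by gene shows, some genes far apart at day 1 were close at day 0, such as Timp3 (0.32 ± 0.15 at day 0), and others already lay the same way, such as Cd177 (-2.42 ± 0.35). Values below are R219S minus WT, fitted log2 fold change ± SE with n = 3 per group, and "higher" and "lower" are written for differences that passed at the adjusted p of 0.05. Counts of higher and lower list members are to be set beside 30.5% and 29.1% of all genes at day 1, and 23.8% and 16.0% at day 0. At day 11 these shares were 24.8% and 24.1%, and by at least 2-fold at day 1 they were 7.66% and 10.9%. The change from day 0 to day 1 passed upward for 19.3% and downward for 20.6%. From day 1 to day 11 it passed for 22.3% and 23.2%. Against EV at day 1 the shares were 29.6% and 30.9% in WT and 23.2% and 25.3% in R219S.

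**Figure D1:**
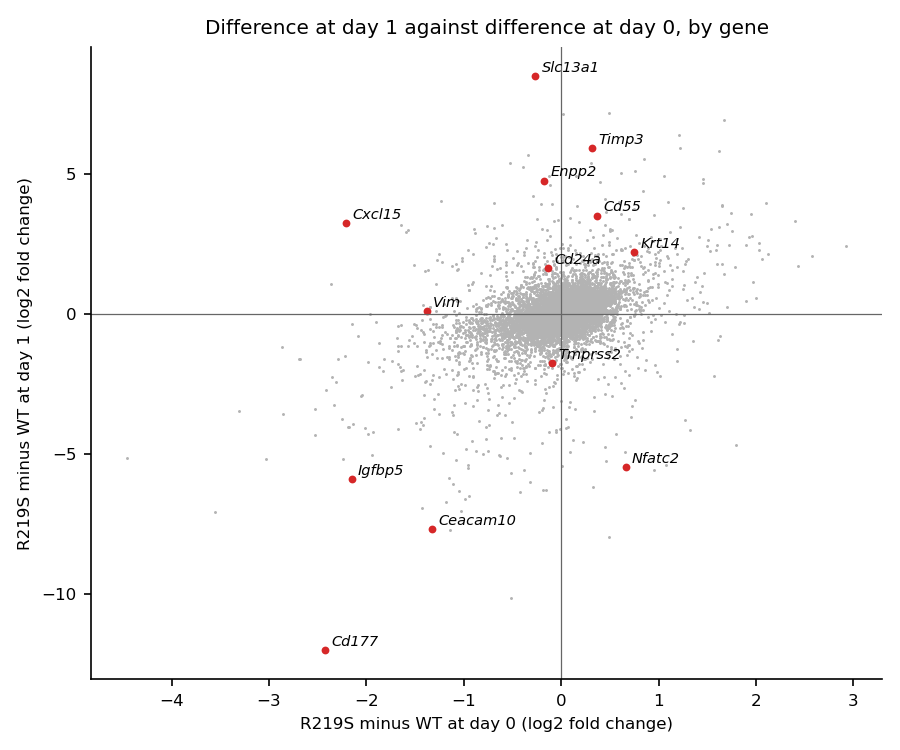
R219S minus WT as fitted log2 fold change at day 0 (x axis) and day 1 (y axis), 1 point per gene, for 11679 genes averaging 2 CPM or more over the 12 libraries and at least 0.05 CPM in each of the 4 groups; the labelled genes are in red, and the axes have different scales. The cloud spreads further along the day 1 axis, where Cd177 reaches -11.99 and Slc13a1 8.50, while Vim lies further from 0 at day 0 than at day 1.

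The 12 genes with the largest negative differences were at or near 0 in R219S. They were taken from genes that passed, averaged 2 CPM or more and had no overlap of the groups. Cd22, a sialic-acid-binding lectin of B cells, stood at 96.9, 64.8 and 101 CPM in WT and had no count in any R219S library. The second WT library was lower than the others, yet every WT library lay far above R219S. With R219S set to 3 counts over its 3 libraries, Cd22 was at least 6310-fold lower in R219S. The same bound was 2190-fold for the metallophosphoesterase gene Mpped1, 1510-fold for the macrophage lectin Siglec1, 1190-fold for the secretin receptor Sctr, 860-fold for the PACAP receptor Adcyap1r1, 629-fold for the glutamate receptor Grm4 and 377-fold for the calpain Capn9, each without a count in R219S. Siglec1, for example, stood at 20.4, 21.2 and 21.6 CPM in the WT libraries and Sctr at 16.3, 14.7 and 18.6 CPM, tight groups against 0.

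Where R219S had a few counts, the gap was as wide. Kcne2, a regulatory subunit of potassium channels that works in acid-secreting stomach cells, stood at 252, 272 and 266 CPM in WT and 0.0565, 0 and 0.0272 CPM in R219S (-13.12 ± 0.26, adjusted p = 4.9e-23). Cd177, a surface protein of neutrophils, stood at 352, 419.8 and 384 CPM in WT and 0.0565, 0.113 and 0.109 CPM in R219S (-11.99 ± 0.24, adjusted p = 2.5e-25). For both genes the R219S libraries were close to 0 and those of WT abundant. Col10a1, the collagen of hypertrophic cartilage, had 2 counts in R219S and was 4890-fold lower there (95% interval 1350 to 40400), the cardiac myosin Myh7 4850-fold (1340 to 40100) and the receptor kinase Grk3 4790-fold (1330 to 39600). These intervals and bounds cover counting error only. Both reads of a pair appear to be counted separately, which makes the intervals too narrow and the bounds too high. EV was at or near 0 for the same genes, with 0, 0 and 0 CPM for Cd22 and 0.0291, 0.148 and 0 CPM for Kcne2.

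Immune receptor genes in WT came without the rest of an immune cell's markers. Summed B cell markers were 0.827 to 1.56 CPM in WT and 0.366 to 0.531 CPM in R219S, with Ms4a1 at 0 in both groups. Of the myeloid markers, the macrophage genes Adgre1, Tyrobp, C1qa and C1qb were at 0 in all 6 libraries, while Csf1r, the receptor for the growth factor of macrophages, averaged 63.6 CPM in WT and 0.0554 CPM in R219S.

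Genes that set R219S apart were equally absent from WT. Cyp2c29, a liver cytochrome P450 that oxidises fatty acids and drugs, had no count in WT and stood at 80.1, 94.5 and 90.2 CPM in R219S, at least 6980-fold higher with WT set to 3 counts. EV had none either. The difference passed in edgeR under each setting tried that kept the gene (adjusted p 5.1e-11 to 4.4e-07) but not in DESeq2 (adjusted p = 0.056). Further genes without a count in WT were Cps1, the first enzyme of the urea cycle (at least 829-fold, 9.64, 11.6 and 10.2 CPM in R219S), Otol1, an otolith matrix gene (507-fold), Reg3b, an antimicrobial lectin of gut and pancreas (460-fold), the synaptic adhesion gene Lrrtm2 (404-fold) and the pseudogene Cyp2c53-ps (399-fold), all as lower bounds. Cyp2c53-ps overlaps Cyp2c29 on the same strand, so the counts of this pair are not independent and the pseudogene value is uncertain.

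Igf1, the circulating and local growth factor, stood at 0.0249, 0.103 and 0.0503 CPM in WT and 68.8, 73.7 and 69.0 CPM in R219S (10.18 ± 0.32, adjusted p = 1.2e-14). Col14a1, a collagen that coats fibrils, stood at 0.0996, 0 and 0.101 CPM in WT and 170.4, 170.1 and 174 CPM in R219S (11.28 ± 0.23, adjusted p = 1.3e-26). In both cases all R219S libraries were high and all WT libraries close to 0, in a list that admitted only genes without overlap. The sulfate transporter Slc13a1 stood at 0.199, 0.142 and 0.113 CPM in WT and 50.3, 58.1 and 58.6 CPM in R219S (8.50 ± 0.21), and the membrane protein gene Tmem45a2 averaged 8.34 CPM in R219S (8.81 ± 0.50). Igfn1, a muscle gene, was 3320-fold higher than WT (95% interval 920 to 27400) and the myelin gene Mobp 1350-fold (373 to 11100), each with 2 counts in WT.

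**Figure D2:**
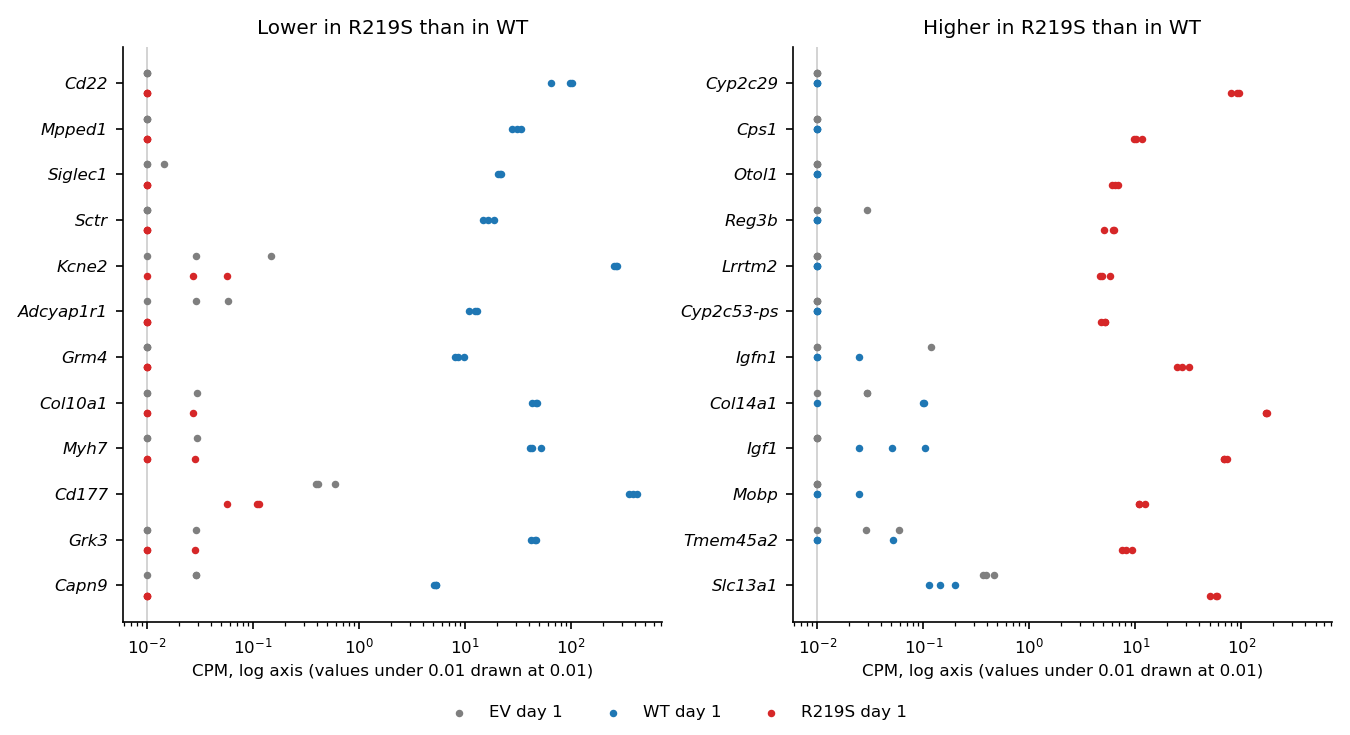
CPM per library at day 1 (log axis, values under 0.01 drawn at 0.01) for the 12 genes with the largest negative and the 12 with the largest positive R219S minus WT difference, among genes that passed, averaged 2 CPM or more and had no overlap of the groups; each point is a library. WT alone is high in the left panel and R219S alone in the right one, and the EV libraries lie with the lower group or near it.

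Promoters of some of these genes are shown since FOXA1 binds DNA and the genes are near 0 in one group. The sequences are RefSeq's for GRCm38.p6, from 250 bases before the annotated start to 50 after it, written along the gene's strand. Capitals mark the hexamers GTAAAC or GTAAAT or GTAAAG or GTAAAA, searched on both strands, which hold the forkhead core. Cd177 and Kcne2 were high in WT, and Cyp2c29 and Reg3b were high in R219S.
Cd177: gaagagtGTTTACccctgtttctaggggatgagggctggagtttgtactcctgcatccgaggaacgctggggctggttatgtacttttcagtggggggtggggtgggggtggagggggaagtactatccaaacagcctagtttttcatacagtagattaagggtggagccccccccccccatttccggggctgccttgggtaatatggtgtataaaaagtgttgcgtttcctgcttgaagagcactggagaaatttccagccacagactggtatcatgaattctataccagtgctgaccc
Kcne2: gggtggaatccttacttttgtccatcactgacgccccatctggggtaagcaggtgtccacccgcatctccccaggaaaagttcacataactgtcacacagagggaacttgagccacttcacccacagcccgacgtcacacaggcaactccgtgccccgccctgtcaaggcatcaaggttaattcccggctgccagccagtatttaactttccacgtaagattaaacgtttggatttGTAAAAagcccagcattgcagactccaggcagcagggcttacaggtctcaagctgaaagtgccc
Cyp2c29: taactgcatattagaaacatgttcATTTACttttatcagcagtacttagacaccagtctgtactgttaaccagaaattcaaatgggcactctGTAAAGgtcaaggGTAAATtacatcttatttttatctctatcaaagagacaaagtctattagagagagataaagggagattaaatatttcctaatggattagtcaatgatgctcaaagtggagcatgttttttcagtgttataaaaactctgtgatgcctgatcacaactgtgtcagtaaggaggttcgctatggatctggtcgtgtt
Reg3b: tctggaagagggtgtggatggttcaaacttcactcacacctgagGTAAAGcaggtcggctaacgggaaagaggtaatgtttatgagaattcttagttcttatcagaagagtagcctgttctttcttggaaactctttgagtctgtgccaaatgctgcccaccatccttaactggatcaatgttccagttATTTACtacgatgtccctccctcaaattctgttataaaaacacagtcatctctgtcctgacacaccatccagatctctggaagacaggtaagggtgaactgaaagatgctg
These windows lie at chr7:24760262-24760561 (minus strand), chr16:92292139-92292438 (plus strand), chr19:39286835-39287134 (plus strand) and chr6:78370635-78370934 (plus strand). Cd177 holds GTAAAC on the opposite strand and Kcne2 holds GTAAAA, while Cyp2c29 and Reg3b each hold GTAAAG and GTAAAT. The hexamer GTAAAC was found in 8.76% of 1210 promoters of genes at least 2-fold higher in R219S, in 6.90% of 1696 promoters of genes at least 2-fold lower, in 6.68% of 15156 promoters of all genes tested and in 7.89% of 32851 promoters in the table. For GTAAAT the shares were 6.53%, 7.72%, 5.63% and 9.26% in the same order, for GTAAAG 9.83%, 7.84%, 8.41% and 10.1%, and for GTAAAA 10.7%, 7.25%, 7.06% and 10.4%. A match is a run of letters and not a measured binding site, and FOXA1 is known to bind mostly away from promoters. Windows of 14 of the 24 genes with the largest differences were searched, and for 8 of these, Adcyap1r1, Capn9, Cd22, Col10a1, Igf1, Mpped1, Myh7 and Otol1, no window holds any of the 4 hexamers. Kcne2 has another listed start, whose window holds none either, and of the remaining genes Igfn1 holds GTAAAC and Mobp GTAAAG.

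Among abundant genes, those averaging 50 CPM or more over the 6 libraries, 8 each way were named by the size of the difference, and Kcne2, Cd177 and Col14a1, described above, are among them. Ceacam10, a carcinoembryonic-antigen-like protein of the male reproductive tract, stood at 406, 421 and 415 CPM in WT and 2.12, 2.07 and 1.96 CPM in R219S (-7.66 ± 0.12, adjusted p = 1.3e-29). Scnn1g, a subunit of the epithelial sodium channel, stood at 109.8, 112 and 115 CPM in WT and 0.790, 0.832 and 0.966 CPM in R219S (-7.02 ± 0.13). Absence of overlap between the groups was a condition for naming these abundant genes. EV was low for Ceacam10 and Scnn1g. Igfbp5, which binds insulin-like growth factors, stood at 187, 154 and 163 CPM in WT and 2.34, 1.92 and 4.19 CPM in R219S (-5.89 ± 0.32). The transcription factor Nfatc2 (-5.45 ± 0.13), the dystrophin relative Drp2 (-5.42 ± 0.16) and the phospholipid enzyme Cds1 (-5.12 ± 0.09) were lower in R219S as well.

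Of the abundant genes higher in R219S, Timp3, an inhibitor of metalloproteinases that is held in the matrix, stood at 14.6, 13 and 16.1 CPM in WT and 942, 859 and 855 CPM in R219S (5.92 ± 0.18, adjusted p = 3.8e-20). Its relative Timp1 stood at 7.62, 8.11 and 6.90 CPM in WT and 121, 129 and 117 CPM in R219S (4.02 ± 0.11). Both inhibitors were high in every R219S library. Arginase 1 (Arg1, 4.91 ± 0.19), the lysophosphatidic acid enzyme Enpp2 (4.76 ± 0.14), the neutrophil protease inhibitor Serpinb1a (3.93 ± 0.10) and Cd55, which protects cells from complement (3.51 ± 0.07), were higher too. The lung and epithelial chemokine Cxcl15 stood at 9.20, 13.1 and 12.2 CPM in WT and 102.2, 118 and 109.6 CPM in R219S (3.26 ± 0.21). At day 0 its order was the opposite, with 32.3, 42.8 and 39.5 CPM in WT and 7.14, 8.85 and 8.66 CPM in R219S (-2.21 ± 0.22, adjusted p = 1.2e-08), and at day 11 R219S was lower again (-1.31 ± 0.20).

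Beside EV, the abundant genes fell on different sides of the zero line. Both comparisons share the EV libraries and are set side by side only. Scnn1g was 7.17 ± 0.13 in WT minus EV and 0.15 ± 0.17 in R219S minus EV, Igfbp5 6.0 ± 0.32 and 0.11 ± 0.38, and Cds1 4.91 ± 0.09 and -0.20 ± 0.09, so that for these genes the WT value stood far from EV and the R219S value near it. For Timp3, with 78.1, 74.9 and 86.1 CPM in EV, WT minus EV was -2.45 ± 0.16 and R219S minus EV 3.47 ± 0.16, so that R219S was above EV and WT below it. Arg1 followed the same order, -2.29 ± 0.18 and 2.63 ± 0.16. Ceacam10 was above EV in WT (6.13 ± 0.11) and below it in R219S (-1.52 ± 0.13).

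**Figure D3:**
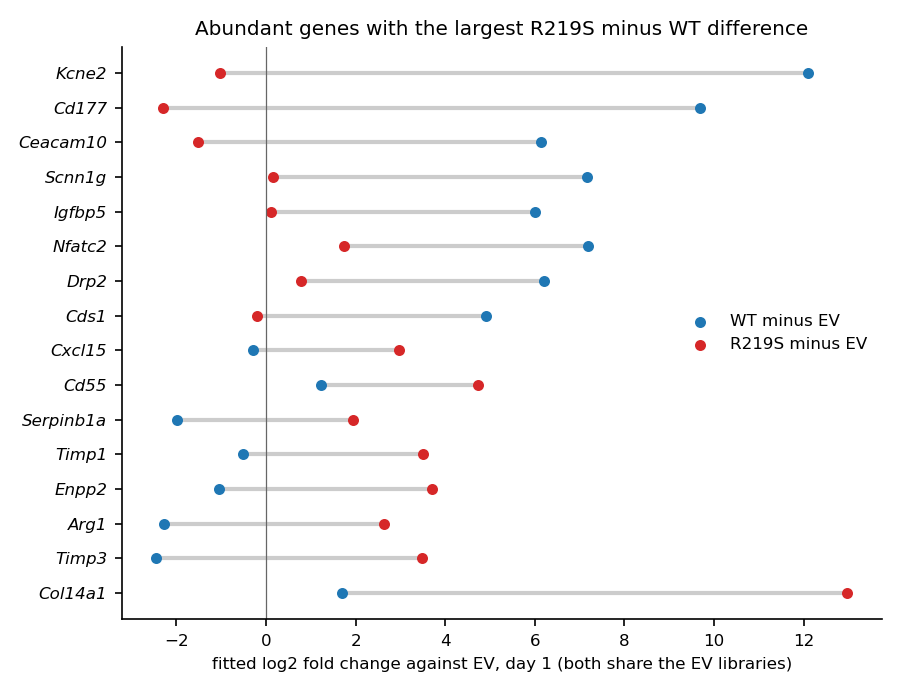
Fitted log2 fold change against EV at day 1 of WT (blue) and of R219S (red) for the abundant genes with the largest R219S minus WT difference, 8 each way; the grey line joins the values of a gene, and both share the EV libraries. WT stands far to the right of 0 for the upper 8 genes, R219S for most of the lower 8.

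Genes of basal and stratified epithelium were mostly higher in R219S than in WT at day 1. Of 24 basal epithelium genes tested, 19 were higher and 3 lower (median 0.97), against 30.5% and 29.1% of all genes and a median of all genes of -0.01. Krt14, a keratin of basal cells, stood at 256, 232 and 241 CPM in WT and 1108, 1105 and 1138 CPM in R219S (2.20 ± 0.07, adjusted p = 6.8e-24). The groups were more than 4 times apart and did not overlap, and EV was higher than both at 2149, 2141 and 2404 CPM. Trp63 stood at 134, 155 and 141 CPM in WT and 304, 322 and 308 CPM in R219S (1.12 ± 0.07, adjusted p = 3.6e-16). All R219S libraries lay above all WT libraries, though at day 0 the order was reversed (-0.17 ± 0.07, adjusted p = 0.037). Krt5 differed less (0.54 ± 0.05), and the transcription factor Snai2 (1.79 ± 0.05), P-cadherin (Cdh3, 1.36 ± 0.05), the laminin receptor subunit Itga3 (1.52 ± 0.06) and the hyaluronan receptor Cd44 (1.20 ± 0.05) were higher. The neurotrophin receptor Ngfr went the other way (-2.75 ± 0.10). At day 0, 13 of the 24 were higher and 6 lower (23.8% and 16.0% of all genes, median 0.18), and the difference of the days passed upward for 16 and downward for 3 (19.3% and 20.6% of all genes). Against EV, 1 of the 24 was higher and 23 lower in WT (29.6% and 30.9% of all genes, median -1.27), and 2 were higher and 18 lower in R219S (23.2% and 25.3% of all genes, median -0.67). Scaled to total counts, 6860 of all genes were higher and 4429 lower in WT than in EV, instead of 5382 and 5612. Another scaling method, RLE, gave 5778 and 5169.

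Squamous and cornified envelope genes, which build the tough outer layers of skin, gave the widest shift of the lists with 10 or more members. Of 34 tested, 28 were higher in R219S and 4 lower (median 2.10), and 24 were higher and 3 lower by at least 2-fold (7.66% and 10.9% of all genes). Krt6a, a keratin of stressed and wounded epidermis, stood at 124, 134 and 120.2 CPM in WT and 588, 591 and 596 CPM in R219S (2.23 ± 0.08). The desmosomal cadherins Dsc3 and Dsg3 followed, Dsc3 with 119, 125 and 118 CPM in WT and 455, 536 and 518 CPM in R219S (2.06 ± 0.07) and Dsg3 with a difference of 2.44 ± 0.12. In each the lowest R219S library was several times the highest WT library. Transglutaminase 1 (Tgm1, 1.96 ± 0.12), Krt6b (2.74 ± 0.21) and loricrin (Lor, 4.70 ± 0.31), the main protein of the cornified envelope, were higher at lower levels, Lor averaging 0.135 CPM in WT and 3.54 CPM in R219S. At day 0, 19 were higher and 2 lower (median 0.79). Against EV, 3 were higher and 27 lower in WT (29.6% and 30.9% of all genes, median -2.84). In R219S 8 were higher and 18 lower (23.2% and 25.3% of all genes, median -0.69). Dsc3 was among the 8, with 97.4, 108 and 97.8 CPM in EV and a difference from EV of 2.32 ± 0.08 in R219S.

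Genes that fasten epithelial cells to the matrix and to each other moved the same way. Of 14 hemidesmosome and laminin genes, 11 were higher and none lower (median 0.84), and 3 did not pass. Col17a1, the transmembrane collagen of hemidesmosomes, stood at 159.8, 163 and 149.7 CPM in WT and 422, 413 and 412 CPM in R219S (1.4 ± 0.08), with no difference that passed at day 0 (0.00 ± 0.07). The laminin chain Lamb1 (1.31 ± 0.07), the integrin Itgb4 (0.89 ± 0.06) and the linker dystonin (Dst, 0.80 ± 0.06) were higher. At day 0, 8 of the 14 were already higher and none lower (median 0.20), beside 23.8% and 16.0% of all genes. Of 16 desmosome genes, 12 were higher and 2 lower (median 0.61), among the higher the p53 and p63 target Perp (1.38 ± 0.07) and the plaque proteins Pkp1 (0.58 ± 0.05) and Pkp3 (0.47 ± 0.04). Desmosome genes also leaned this way at day 0, with 10 higher and none lower (median 0.30). Keratins as a family split: of 41 tested, 20 were higher and 16 lower, 18 and 13 of them by at least 2-fold (7.66% and 10.9% of all genes). The keratin count at day 0 was 19 higher and 4 lower (median 0.59). Krt17 (1.69 ± 0.08) and Krt23 (2.39 ± 0.13) were higher, while Krt78 was lower (-4.29 ± 0.17), and Krt77, a keratin of sweat ducts and suprabasal skin, stood at 49.5, 52.5 and 56.5 CPM in WT and 0.0565, 0.0423 and 0.0272 CPM in R219S.

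**Figure D4:**
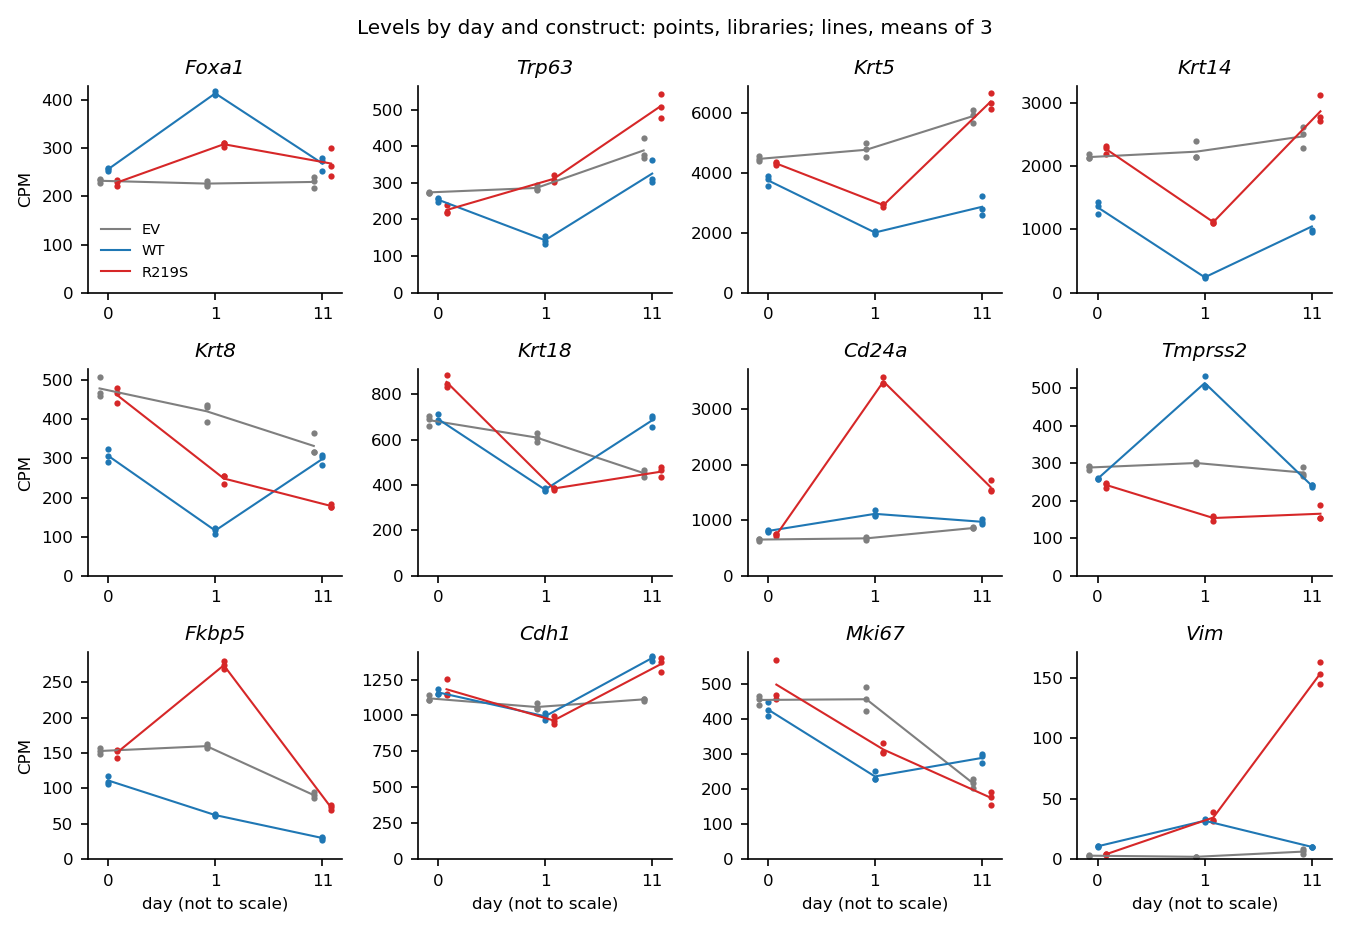
CPM of 12 genes at days 0, 1 and 11 (days not drawn to scale) in EV, WT and R219S; points are libraries and lines join the means of 3. At day 1 Krt14, Trp63 and Cd24a are higher in R219S than in WT, Tmprss2 is lower and Krt18 lies together; Trp63 and Cd24a lie closer at day 0.

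Luminal markers did not share a direction. Of 25 tested, 9 were higher and 12 lower, with a median of 0.02 that was -0.05 when scaled to total counts. Cd24a, a surface glycoprotein of luminal and progenitor cells, stood at 1072, 1186 and 1093 CPM in WT and 3575, 3468 and 3460.0 CPM in R219S (1.65 ± 0.05, adjusted p = 6.3e-25), the groups being far apart. At day 0 it was slightly lower in R219S (-0.13 ± 0.05), and the change between the days was 1.78 ± 0.07. Krt8, a keratin of simple epithelium, stood at 116, 123 and 108 CPM in WT and 256, 255 and 235 CPM in R219S (1.10 ± 0.07), whereas its partner Krt18 did not differ beyond the spread (0.02 ± 0.04, adjusted p = 0.72). Krt8 was lower in R219S by day 11 (-0.74 ± 0.07). Lower at day 1 were Krt7 (-0.64 ± 0.04), the tetraspanin Tspan8 (-1.80 ± 0.11), the stem cell marker Prom1 (-1.98 ± 0.12) and Spdef, an ETS factor of secretory cells (-6.33 ± 0.30). Spdef was close to absent in R219S at both days, with 4.04, 4.20 and 4.48 CPM in WT and 0.0706, 0.0564 and 0.0272 CPM in R219S at day 1 and a difference of -4.58 ± 0.33 at day 0.

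Prostate secretory genes were lower in R219S. Of 11 tested, none was higher and 9 were lower (median -0.94). Sbp, the spermine-binding protein of prostatic fluid, stood at 247, 259 and 264 CPM in WT and 20.1, 21.1 and 20.3 CPM in R219S (-3.65 ± 0.14, adjusted p = 4.0e-17). Its relative Sbpl was -3.56 ± 0.15. All WT libraries lay far above all R219S libraries, and EV was near 0 for Sbp at 0, 0.0594 and 0 CPM, so that R219S stood between EV and WT. The antibody transporter Pigr averaged 146 CPM in WT, 10.1 CPM in R219S and 104.7 CPM in EV (-3.85 ± 0.16), which puts R219S lowest. Ceacam1 (-0.94 ± 0.06) and Ceacam2 (-0.61 ± 0.06) were lower, and Spink1, a trypsin inhibitor, was without counts in R219S (at least 65.9-fold lower). At day 0, 6 were lower and 1 higher.

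Androgen response genes split by gene. Of 24 tested, 8 were higher and 12 lower (median -0.17). Fkbp5, a chaperone of steroid receptors and a standard androgen target, stood at 63.3, 61.5 and 62.1 CPM in WT and 274, 279.8 and 268 CPM in R219S (2.14 ± 0.06, adjusted p = 4.5e-26). Tmprss2, a serine protease and another standard target, stood at 531, 504 and 506 CPM in WT and 159, 147 and 156 CPM in R219S (-1.74 ± 0.05, adjusted p = 8.1e-25). These standard targets were thus apart in opposite directions, each without overlap of the groups, and the same opposition held against EV: Fkbp5 was -1.36 ± 0.06 in WT and 0.78 ± 0.05 in R219S, and Tmprss2 0.77 ± 0.05 and -0.96 ± 0.05. Tmprss2 did not differ at day 0 (-0.10 ± 0.05, adjusted p = 0.13). Ell2 (0.77 ± 0.04), Tubb2a (1.16 ± 0.07) and Adamts1 (1.22 ± 0.08) were higher and Rhob lower (-0.85 ± 0.05).

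Regulators and products of foregut and intestine leaned to WT. Of 13 regulators, 3 were higher in R219S and 9 lower (median -1.02). The intestinal homeobox gene Cdx2 stood at 9.93, 10.3 and 9.90 CPM in WT and 2.09, 1.49 and 1.78 CPM in R219S (-2.49 ± 0.13), and the zinc finger factor Klf5 at 197, 198 and 188 CPM and 93.2, 90.3 and 94.9 CPM (-1.07 ± 0.04). Sox2 (-1.02 ± 0.07), Sox21 (-0.56 ± 0.04) and Onecut2 (-3.56 ± 0.61) were lower too, Onecut2 below 1 CPM in both groups. Klf5, Sox2 and Sox21 also differed in the change between the days, by -0.89 ± 0.06, -0.71 ± 0.10 and -0.53 ± 0.06.

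Of 23 products, 3 were higher and 12 lower (median -0.71). The airway secretory protein Scgb1a1 stood at 24.6, 24.8 and 28.5 CPM in WT and 0.198, 0.197 and 0.245 CPM in R219S (-6.91 ± 0.28), and the goblet cell product Retnlb at 39.6, 45.1 and 42.6 CPM and 0.0565, 0 and 0 CPM. The stomach trefoil Tff1 averaged 14.4 CPM in WT, 4.79 CPM in R219S and 0.0684 CPM in EV (-1.58 ± 0.24). Lactoferrin (Ltf) went the other way, with 148, 127 and 144 CPM in WT and 380.1, 360.4 and 387 CPM in R219S (1.43 ± 0.09). Of the uroplakins of the bladder surface, Upk1b and Upk3a had wide gaps. Upk1b stood at 53.4, 55.7 and 52.9 CPM in WT and 1.21, 1.16 and 0.789 CPM in R219S (-5.68 ± 0.13), and Upk3a at 71.7, 74.2 and 67.2 CPM and 0.0282, 0.0564 and 0 CPM. Other members of the family lay closer together or the other way. Summed counts were 283 in WT and 126 in R219S for Upk1a, 60 and 65 for Upk2, and 911 and 1648 for Upk3bl. Of the 6 urothelial and seminal vesicle genes tested, 1 was higher and 3 lower. Of 8 neuroendocrine genes 1 was higher and 3 lower, with the adhesion molecule Ncam1 averaging 5.06 CPM in WT and 0.126 CPM in R219S (-5.32 ± 0.35), and the synaptic vesicle gene Syp did not pass (-0.70 ± 0.45, adjusted p = 0.18).

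Genes that move ions and water were mostly lower in R219S. Of 27 tested, 7 were higher and 16 lower (median -0.94), 3 and 13 of them by at least 2-fold (7.66% and 10.9% of all genes). At day 0, 3 were higher and 15 already lower (23.8% and 16.0% of all genes, median -0.35). The change between the days passed upward for 10 and downward for 13 (19.3% and 20.6% of all genes). The chloride channel Ano1 stood at 395, 407 and 381 CPM in WT and 74.7, 69.1 and 69.7 CPM in R219S (-2.47 ± 0.06), and the sodium pump subunit Atp1b1 at 413, 425 and 398 CPM and 73.8, 63.7 and 74.7 CPM (-2.54 ± 0.05). For both genes R219S also lay below EV, by -2.68 ± 0.06 and -1.70 ± 0.05 on the log2 scale. Clca1, a secreted regulator of chloride channels in goblet cells, averaged 739 CPM in WT, 55.9 CPM in R219S and 20.2 CPM in EV (-3.72 ± 0.08), and the potassium channel Kcnj15 was -2.49 ± 0.07. With Scnn1g and Kcne2 above, these 6 are the members with the smallest p, all lower. Among 10 claudins, the barrier proteins of tight junctions, 4 were higher and 5 lower: Cldn1, found in stratified epithelium, stood at 2.37, 2.35 and 2.36 CPM in WT and 48.7, 52.5 and 47.4 CPM in R219S (4.39 ± 0.13), and Cldn10 (-2.40 ± 0.13) and Cldn8 (-2.01 ± 0.14) were lower.

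Ligands and feedback genes of the EGF receptor and MAP kinase pathway were mostly higher in R219S. Of 23 tested, 17 were higher and 4 lower (median 0.79), whereas at day 0 the count was 7 and 3, or 6 and 7 when scaled to total counts (median -0.04). The change between the days passed upward for 17 and downward for 3 (19.3% and 20.6% of all genes). Among ligands, amphiregulin (Areg) stood at 3.46, 3.85 and 3.14 CPM in WT and 18.4, 20 and 17.3 CPM in R219S (2.42 ± 0.10), neuregulin 1 (Nrg1) was 2.47 ± 0.13 and Tgfa 0.97 ± 0.05. Among targets, the phosphatase Dusp6, which switches off ERK, stood at 89.4, 95.3 and 86.9 CPM in WT and 315, 312 and 299.9 CPM in R219S (1.77 ± 0.06). The ETS factors Etv5 (1.83 ± 0.05) and Etv4 (1.34 ± 0.05), known to be induced by ERK signalling, were higher. At day 0 Dusp6 gave -0.07 ± 0.06 (adjusted p = 0.33) and Etv5 -0.34 ± 0.05. Of 19 ETS factors, 12 were higher and 5 lower, Elf4 (-1.25 ± 0.05) and Ets2 (-0.68 ± 0.04) among the lower and Ets1 (1.17 ± 0.07) among the higher.

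Other signalling families held large differences in both directions, beside 30.5% of all genes higher and 29.1% lower. In the IGF axis 7 of 15 members were higher and 6 lower (7 and 7 in DESeq2). Besides Igf1 and Igfbp5, the hormone stanniocalcin 1 (Stc1) stood at 1.17, 0.943 and 0.868 CPM in WT and 34.0, 35.2 and 34.2 CPM in R219S (5.11 ± 0.22), and the insulin receptor Insr (-1.01 ± 0.07) and its substrate Irs1 (-1.14 ± 0.08) were lower. In the BMP and TGF-beta list 18 of 32 were higher and 8 lower (median 0.57): the activin antagonist follistatin (Fst, 3.17 ± 0.12), Bmp2 (2.17 ± 0.18) and the receptor Tgfbr1 (0.71 ± 0.05) were higher, and Bmp4 (-3.52 ± 0.27) and the inhibitor Smad6 (-1.24 ± 0.09) lower. In the Wnt list 22 of 40 were higher and 14 lower (median 0.46). The antagonist Sfrp1 stood at 10.6, 14.2 and 11.2 CPM in WT and 77.1, 74.0 and 71.5 CPM in R219S (2.63 ± 0.08), and another antagonist, Wif1, at 187, 201 and 199.5 CPM and 28.6, 25.1 and 28.2 CPM (-2.84 ± 0.15), so that these antagonists were high in opposite groups. Wnt7b (1.13 ± 0.07) and Tcf7 (1.01 ± 0.06) were higher, and Wnt5a (-3.06 ± 0.21) and the target Sp5 (-4.14 ± 0.27) lower. In the Notch list 10 of 20 were higher and 6 lower, with the ligands Jag1 higher (0.82 ± 0.08) and Dll4 lower (-5.19 ± 0.30).

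Cell cycle genes were higher in R219S at day 1 almost without exception. All 50 G2 and M phase genes tested were higher (median 0.65), as were 39 of 40 DNA replication genes, with 1 lower (median 0.53). The mitotic kinesin Kif23 stood at 79.7, 86.9 and 79.8 CPM in WT and 223, 229 and 216 CPM in R219S (1.44 ± 0.07), and the proliferation marker Mki67 at 229.5, 252 and 228 CPM and 302, 332 and 306 CPM (0.41 ± 0.08, adjusted p = 8.2e-05). Both groups were below EV for Mki67, which had 458, 492 and 422 CPM. The sliding clamp Pcna (0.79 ± 0.05), the helicase subunit Mcm4 (0.87 ± 0.06) and E2f1 (0.78 ± 0.06) were higher. Much of this was there at day 0, when 47 of the 50 mitotic genes were higher and 1 lower (median 0.36) and 35 of the DNA replication genes were higher (median 0.30). Against EV at day 1 the G2 and M phase median was -1.02 in WT, with 50 of 50 lower (30.9% of all genes lower). In R219S the median was -0.37, with 45 lower and 1 higher (25.3% and 23.2% of all genes). By day 11 the order had turned: 47 of 50 G2 and M phase genes and 38 of 40 DNA replication genes were lower in R219S and none higher (24.1% of all genes lower, 24.8% higher; scaled to total counts, 3498 genes were higher and 6031 lower at day 11 instead of 4500 and 4383, with a median of all genes of -0.102 instead of -0.008). The day 11 difference less the day 1 difference passed downward for all 50 and all 40 (23.2% of all genes downward, 22.3% upward).

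Ribosomal protein and respiratory chain genes were slightly lower in R219S. Of 75 ribosomal protein genes, 66 were lower and none higher (median -0.27), while at day 0 only 1 was lower and 4 higher, or 28 and 3 when scaled to total counts. Rps20 stood at 1176, 1361 and 1218 CPM in WT and 842, 828 and 820.0 CPM in R219S (-0.59 ± 0.06), 1 of the wider gaps, and Rps27 was -0.67 ± 0.07. Ribosomal protein genes have many near-identical pseudogenes, so their counts are uncertain where reads map to several copies. Of 75 nuclear genes of the respiratory chain, 54 were lower and 3 higher (median -0.27), against 3 lower and 25 higher at day 0 (5 and 10 when scaled to total counts). The ATP synthase subunit Atp5o stood at 306, 345 and 326 CPM in WT and 159.6, 154 and 148 CPM in R219S (-1.08 ± 0.07), and Ndufa8 of complex I was -0.75 ± 0.05. Against EV, 71 of the ribosomal genes were lower in R219S and none higher (25.3% and 23.2% of all genes, median -0.30). In WT minus EV 12 were lower and 6 higher, a split that turned to 4 and 42 when scaled to total counts, under which the median of all genes in that comparison was 0.104 instead of -0.013. With RLE scaling that split turned as well, to 6 lower and 11 higher. Of the respiratory genes 58 were higher and 2 lower in WT than in EV (median 0.23; 29.6% and 30.9% of all genes), and 11 were higher and 14 lower in R219S (median -0.04; 23.2% and 25.3% of all genes).

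Cholesterol synthesis genes were higher in R219S in 22 of 24 cases and lower in 1 (median 0.66). The lanosterol demethylase Cyp51 stood at 154, 176 and 155 CPM in WT and 314, 321 and 304 CPM in R219S (0.95 ± 0.05), without overlap of the groups, and Nsdhl (0.96 ± 0.06) was higher. Against EV, none of the 24 was higher and 21 were lower in WT (30.9% of all genes lower), and 4 were higher and 9 lower in R219S (23.2% and 25.3% of all genes). At day 0, 15 of the 24 were already higher and 1 lower (median 0.15), or 10 and 2 with RLE scaling. The change from day 0 to day 1 passed upward for 19 and downward for 3 (19.3% and 20.6% of all genes). At day 11 the list held 6 higher and 8 lower. Of 16 fatty acid synthesis genes, 11 were higher and 4 lower: the desaturases Fads1 (1.11 ± 0.04) and Fads2 (1.11 ± 0.04) and malic enzyme (Me1, 1.69 ± 0.07) were higher, and Acacb (-3.55 ± 0.10), which makes the malonyl-CoA that slows fatty acid oxidation, was lower. Of 28 glycolysis and hypoxia genes 9 were higher and 13 lower, with hexokinase 2 (Hk2, -0.95 ± 0.06), Pfkp (-0.86 ± 0.06) and Bnip3 (-1.16 ± 0.09) lower. At day 0 none was higher and 20 were lower.

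Interferon response genes were more often lower than higher in R219S at day 1 and nearly all higher at day 11. Of 46 tested, 7 were higher and 20 lower at day 1 (median -0.39), 1 and 12 of them by at least 2-fold (7.66% and 10.9% of all genes). Without the third R219S library or without the third WT library 4 were higher, with 19 or 18 lower. The antiviral gene Oasl1 stood at 7.52, 6.39 and 6.78 CPM in WT and 0.706, 1.06 and 0.871 CPM in R219S (-2.97 ± 0.19), and Tap1, which carries peptides to MHC class I, at 58.9, 58.0 and 60.3 CPM and 24.5, 24.8 and 24.7 CPM (-1.26 ± 0.11). Every R219S library lay below every WT library for both. Cmpk2 (-2.09 ± 0.19) and Ifit2 (-0.87 ± 0.07) were lower, while Parp9 (0.75 ± 0.06) and the RNA sensor Ddx58 (0.57 ± 0.05) were higher. At day 0 none of the 46 was higher and 10 were already lower (median -0.21). The change from day 0 to day 1 passed upward for 6 and downward for 10 (19.3% and 20.6% of all genes). At day 11, 44 of 46 were higher and 1 lower (24.8% and 24.1% of all genes, median 1.55), Oasl1 at 1.56 ± 0.19 and Tap1 at 1.4 ± 0.11. The change from day 1 to day 11 passed upward for 42 and downward for 1 (22.3% and 23.2% of all genes). Of 19 genes of MHC class I presentation, 4 were higher and 11 lower at day 1, the chaperone Pdia3 (1.02 ± 0.05) among the higher and the regulator Nlrc5 (-1.95 ± 0.21) and the proteasome subunit Psmb8 (-1.55 ± 0.18) among the lower, and at day 11 16 were higher and none lower.

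Inflammatory genes were mixed, beside 30.5% of all genes higher and 29.1% lower. Of 28 targets in the NF-kB list, 15 were higher and 6 lower, or 14 and 9 when scaled to total counts (median 0.22), with the adhesion molecule Icam1 (1.03 ± 0.06) higher and Sod2 (-0.62 ± 0.04) and Nfkbiz (-0.87 ± 0.07) lower. Of 20 chemokines, 8 were higher and 6 lower (6 and 6 without the first WT library). The neutrophil chemokine Cxcl1 stood at 29.9, 34.3 and 29.9 CPM in WT and 94.9, 98.9 and 101 CPM in R219S (1.65 ± 0.09), and Cxcl16 (1.18 ± 0.07) and Ccl20 (1.62 ± 0.13) were higher, while Cxcl17, a mucosal chemokine, averaged 11.8 CPM in WT and 0.595 CPM in R219S (-4.31 ± 0.23).

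Serpins, a family of protease inhibitors, were higher in R219S in 24 of 32 cases and lower in 3 (median 1.32), 19 and 1 by at least 2-fold (7.66% and 10.9% of all genes). Serpinb9, which blocks granzyme B, stood at 27.7, 28.4 and 28.3 CPM in WT and 233, 217 and 222 CPM in R219S (2.99 ± 0.07), and the mammary tumour suppressor Serpinb5 at 56.2, 63.2 and 56.2 CPM and 153, 155 and 152 CPM (1.39 ± 0.07). Serpinb1b (4.21 ± 0.16), Serpina3g (2.03 ± 0.12) and Serpinb6b (1.58 ± 0.11) were higher. Serpinb1a and Serpinb1b, and the Serpina3 genes, are close copies of each other in mouse, so the split of reads between them is uncertain. At day 0, 9 serpins were higher and 1 lower (median 0.20). The change between the days passed upward for 19 serpins and downward for 4 (19.3% and 20.6% of all genes).

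Genes of the extracellular matrix and of the mesenchymal transition did not form a single direction. Of 22 transition genes, 13 were higher and 6 lower (median 0.89): thrombospondin 1 (Thbs1) stood at 147, 148 and 146 CPM in WT and 576, 585 and 562 CPM in R219S (1.96 ± 0.06), Itga5 (1.18 ± 0.08) and Mmp14 (0.68 ± 0.04) were higher, and the receptor kinase Axl was lower, with 619, 668 and 616 CPM in WT and 146, 137 and 136 CPM in R219S (-2.18 ± 0.08). Vimentin (Vim) and E-cadherin (Cdh1) did not pass (0.12 ± 0.14, adjusted p = 0.49, and -0.04 ± 0.04, adjusted p = 0.39), though Cdh1 was lower when scaled to total counts (-0.11, adjusted p = 0.0033; range over the settings 0.0033 to 0.67). Vim had been lower in R219S at day 0 (-1.38 ± 0.16) and was far higher by day 11 (3.93 ± 0.15, 10.3, 9.97 and 9.99 CPM in WT and 153, 145 and 163 CPM in R219S). Of 36 collagens, 13 were higher and 12 lower (11 and 12 without the second WT library), among them Col28a1 (4.04 ± 0.21) and the basement membrane chain Col4a5 (1.33 ± 0.08) higher and Col6a4 (-2.10 ± 0.13) lower. Of 13 hyaluronan genes, 8 were higher and 5 lower. The synthase Has3 stood at 1.18, 1.08 and 1.02 CPM in WT and 33.6, 31.5 and 34.0 CPM in R219S (4.91 ± 0.14), while Has1 (-3.82 ± 0.48) was lower near 1 CPM. Of 6 small leucine-rich proteoglycans 2 were higher, Dcn (2.10 ± 0.31) and Lum, which had no count in WT (at least 70.5-fold) and did not pass in DESeq2 (adjusted p = 0.31).

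Markers of stromal cells differed beside these matrix genes at low levels. Summed fibroblast markers were 8.40 to 9.04 CPM in WT, 15.4 to 17.2 CPM in R219S and 20.2 to 22.1 CPM in EV, with 3 of 19 markers at 1 CPM or more in WT and in R219S. The fibroblast genes Col1a2, Thy1, Tcf21 and Dpt were at 0 in both groups. Summed smooth muscle markers were 2.14 to 2.54 CPM in WT and 5.27 to 5.70 CPM in R219S, of which Acta2 gave 1.60 and 5.11 CPM. Summed endothelial markers were 8.85 to 10.3 CPM in WT and 4.16 to 4.62 CPM in R219S, with Cdh5, Cldn5 and Emcn at 0 in both and Pecam1 averaging 4.34 and 0.372 CPM. Neuron and glia markers summed to 28.3 to 28.6 CPM in WT and 53.5 to 58.0 CPM in R219S, nearly all of it Map2. Hepatocyte markers summed to 0.801 to 1.13 CPM in WT and 0.095 to 0.198 CPM in R219S. T cell markers summed to 0.859 to 1.11 CPM in WT and 1.36 to 1.52 CPM in R219S with Cd3d and Cd8a at 0, and myeloid markers to 207 to 224 CPM and 191 to 207 CPM, mostly Cd14. The part of such cells in the differences above was not tested.

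Enzymes that handle small molecules differed in both directions, as did all genes, with 30.5% higher and 29.1% lower. Of 9 UDP glucuronosyltransferases, which attach sugar to drugs and hormones, 7 were higher in R219S and none lower (median 2.96), against 2 higher and 2 lower at day 0. Ugt1a7c stood at 3.37, 4.11 and 3.83 CPM in WT and 44.5, 45.6 and 44.1 CPM in R219S (3.57 ± 0.09), and Ugt2b34 at 1.54, 1.65 and 1.58 CPM and 28.2, 24.0 and 22.9 CPM (3.97 ± 0.16). The Ugt1a genes share their last exons, so their counts are not independent. Of 18 aldehyde dehydrogenases 6 were higher and 9 lower. Aldh1a1, which makes retinoic acid, stood at 299.8, 329.9 and 298 CPM in WT and 20.2, 20.1 and 19.2 CPM in R219S (-3.96 ± 0.09), and Aldh3a1 was -1.72 ± 0.09. Of 43 cytochromes P450, 11 were higher and 17 lower: besides Cyp2c29, the epoxygenase Cyp2j6 (1.89 ± 0.08) was higher, and Cyp2f2, typical of airway club cells (-4.70 ± 0.20), and the retinoic acid hydroxylase Cyp26b1 (-2.60 ± 0.17) were lower. Of 20 glutathione transferases 8 were higher and 7 lower, with Gstt3 (-1.80 ± 0.07) and Gsta4 (-0.51 ± 0.05) lower.

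Transcription factor families showed single large differences within mixed counts, beside 30.5% of all genes higher and 29.1% lower. Of 26 forkhead genes 8 were higher and 12 lower. Foxj1, the master regulator of motile cilia, stood at 176, 200.5 and 188 CPM in WT, 8.21, 7.58 and 8.06 CPM in R219S and 6.13, 6.27 and 7.05 CPM in EV (-4.57 ± 0.13, adjusted p = 2.5e-22), so that WT alone was high. Foxl1 averaged 3.21 CPM in WT and had no count in R219S (at least 230-fold lower), Foxq1 was lower (-1.16 ± 0.06), and Foxm1, which drives mitotic genes, was higher (1.07 ± 0.07). Of 27 Hox genes 3 were higher and 13 lower (median -0.34), close to day 0, when 4 were higher and 13 lower. Hoxa11 (-1.02 ± 0.06), Hoxa13 (-0.81 ± 0.05) and Hoxd8 (-0.64 ± 0.05) were lower and Hoxd13 (0.60 ± 0.04) higher. Of 10 Sox genes 4 were higher and 3 lower (4 and 4 when scaled to total counts), Sox9 (0.76 ± 0.06) and Sox6 (1.51 ± 0.10) higher and Sox5 (-2.37 ± 0.14) lower.

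Of the stress and growth-control lists, CDK inhibitors and G1 cyclins were mostly higher, and the others held differences both ways. All are to be set beside 30.5% of all genes higher and 29.1% lower. Of 29 p53 response genes 14 were higher and 7 lower: the death receptor Fas (1.49 ± 0.07) and Phlda3 (1.35 ± 0.07) were higher and Gadd45a (-1.37 ± 0.09) lower. Of 15 CDK inhibitors and G1 cyclins 10 were higher and 1 lower (median 0.36), the lower one being the inhibitor Cdkn1a, with 223, 229 and 218 CPM in WT and 145, 144 and 152 CPM in R219S (-0.60 ± 0.05). At day 0, 8 of this list were already higher and 2 lower (median 0.17). Of 22 AP-1 and immediate early genes 8 were higher and 7 lower, Ier3 (1.57 ± 0.07) and Fosl1 (1.75 ± 0.17) higher and Jun lower (-0.56 ± 0.05). Of 26 YAP and TEAD targets 12 were higher and 8 lower, with Myof (1.58 ± 0.08) and the matrix gene Ccdc80 (7.14 ± 0.33) higher and Rbms3 (-1.23 ± 0.06) lower. Of 33 clustered protocadherins 9 were higher and 5 lower, or 7 and 7 when scaled to total counts.

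Between day 0 and day 1 the difference between the lines changed most for genes near 0 beforehand. Pygo1, a Wnt co-factor, stood at 0.249, 0.336 and 0.377 CPM in WT and 17.7, 16.7 and 16.1 CPM in R219S at day 1, after 0.136, 0.186 and 0.20 CPM and 0, 0.0208 and 0 CPM at day 0. Slc13a1 gave a change of 8.77 ± 0.40 (adjusted p = 4.0e-19), from 0.169, 0.219 and 0.333 CPM at day 0 to the values above in R219S. Downward, the muscle gene Myom2 averaged 14.8 CPM in WT at day 1 and 0.0185 CPM in R219S, and the ganglioside enzyme St8sia1 26.6 CPM and 0.0188 CPM, with all day 0 means under 0.03 CPM. Among the other genes named by this change are Cd22, Kcne2, Grk3 and Sctr downward and Cps1, Mobp, Col14a1 and Tmem45a2 upward.

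Some of the day 1 differences were of similar size at day 11 and others were not. Igf1 stood at 26.7, 33.8 and 42.6 CPM in R219S and 0.0688, 0.0595 and 0 CPM in WT at day 11 (9.53 ± 0.34), and Col14a1 at 59.1, 59.5 and 75.9 CPM and 0.138, 0.0297 and 0.115 CPM (9.34 ± 0.22). Cyp2c29 stood at 0.161, 0.332 and 0.524 CPM in R219S, and Slc13a1 had a difference of 1.07 ± 0.28. Kcne2 stood at 9.27, 7.51 and 7.41 CPM in WT at day 11 with 0, 0 and 0 CPM in R219S, and Cd22 at 6.05, 4.34 and 4.77 CPM with 0.0268, 0 and 0 CPM. Over the lists, 22 of the 24 basal epithelium genes were higher at day 11 and 2 lower, squamous genes in 24 of 34 with 4 lower, and prostate secretory genes were lower in 7 of 11 with none higher. Of all genes 24.8% were higher and 24.1% lower at day 11.

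**Figure D5:**
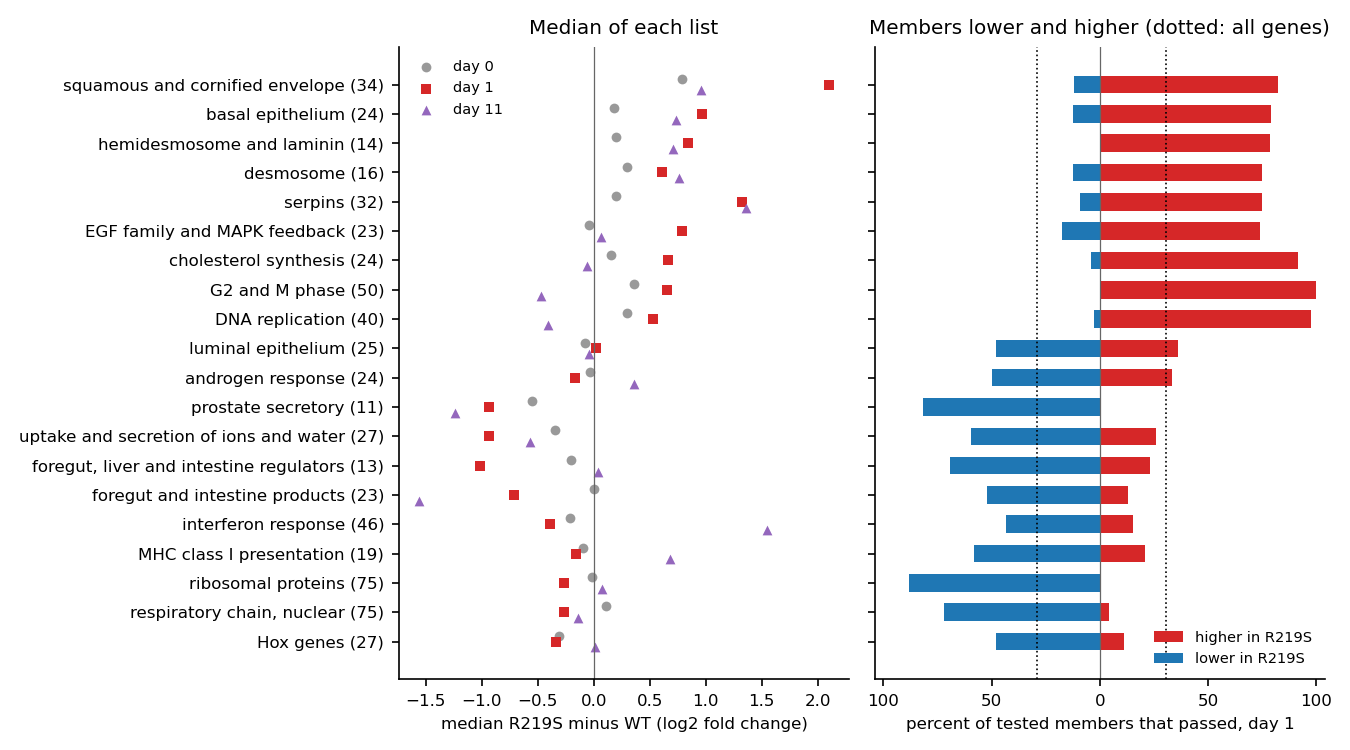
Left, median R219S minus WT log2 fold change of each list at day 0 (grey), day 1 (red) and day 11 (purple), with the number of members tested in brackets; right, percent of those members that were higher (red) or lower (blue) in R219S at day 1, with dotted lines at the shares of all genes tested, 30.5% and 29.1%. Of the lists drawn, the squamous one has the highest day 1 median, 2.10, the cell cycle lists change sign by day 11, and the interferon list goes from -0.39 to 1.55.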

How the data were processed

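RNA sequencing libraries of polyadenylated RNA were deposited as estimated counts per gene, 45232 genes in each library, made by the authors with STAR 2.4.2a, featureCounts 1.4.3 and mm10, which the submitters' processing notes name without their roles; the annotation release and the strand setting are not given in the sources used here. Values were rounded, since 298311 were not written as whole numbers, although the farthest was only 3.0e-09 away. Of the values from 1 to 20, 69.7% were even, so both reads of a pair appear to be counted separately. Identifiers were matched to gene symbols in 44585 cases. The 36 libraries in 12 groups were filtered with filterByExpr (18176 genes kept), scaled by TMM (factors 0.938 to 1.076) and fitted together with 12 group means in edgeR 4.0.16 (R 4.3.3; robust quasi-likelihood F test, two-sided; common biological coefficient of variation 0.0695). Benjamini-Hochberg adjustment was made over all genes of a comparison, and an adjusted p under 0.05 counted as passed. The SE is the absolute log2 fold change divided by the square root of F and can be too small where a group has few counts. CPM are counts per 1e+06 counts of the scaled library.

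Genes named are a fixed set of lineage and androgen genes, the 12 largest differences each way of genes that passed, averaged 2 CPM or more and did not overlap, the 8 largest each way of those averaging 50 CPM or more, up to 6 members of each of 48 lists with the smallest p, the 6 largest each way of the change between day 0 and day 1, and 8 lists of markers of other cell types. Predicted genes were left out, and some genes the rule names are not reported here. The members and lists were chosen with earlier results of these data known. The comparison of day 11 with day 1 and the alternatives for the comparisons with EV were added after seeing the data. Alternatives were RLE and total-count scaling, no filter and a stricter filter on low counts, DESeq2 1.42.0, only the compared groups in the fit, a replicate block and leaving out each replicate. The fitting script was tested on simulated data. Libraries of the FE255del construct and of EV at days 0 and 11 entered the joint fit only, except that EV is drawn at those days.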

Additional observations from a re-analysis of the deposited data

Results flagged for a closer look

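For the genes below the difference R219S minus WT at day 1 was not the difference at day 0, by a test of the change itself (edgeR quasi-likelihood test, Benjamini-Hochberg adjusted p under 0.05, n = 3 per group). The values are changes on the log2 scale, day 1 less day 0. Among genes of luminal and basal cells the change was 1.78 for Cd24a, 1.45 for Krt14, 1.29 for Trp63, 0.51 for Krt8, 0.34 for Krt5 and -0.29 for Krt18. Foxa1 itself changed by -0.26. Of the androgen-responsive genes, Fkbp5 changed by 1.70 and Tmprss2 by -1.64, and the intermediate filament gene Vim by 1.50.

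Abundant genes with an upward change were the chemokine Cxcl15 (5.47), the matrix-bound inhibitor Timp3 (5.60), Arg1 (5.04), Enpp2 (4.94), Serpinb1a (4.13), Timp1 (3.42) and Cd55 (3.15). Upward changes of genes that were near 0 in most groups were 8.82 for Col14a1, 8.82 for Tmem45a2 and 8.77 for Slc13a1. Downward, the change was -10.88 for St8sia1, -9.57 for Cd177, -6.33 for Ceacam10, -6.11 for Nfatc2, -5.99 for Scnn1g, -5.43 for Drp2, -4.56 for Cds1 and -3.74 for Igfbp5.

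Between day 1 and day 11, a pair of genes passed in opposite directions at the separate days and in the change, day 11 less day 1: Krt8 with -1.85 and Mki67 with -1.13.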

How the results depend on the processing

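No named gene that passed changed direction under the alternatives, whereas the balance of higher and lower calls turned under total-count scaling at day 1 (4754 higher, 6128 lower), at day 0 (3049, 3978), at day 11 (3498, 6031), in WT against EV (6860, 4429) and in R219S against EV (4999, 3979), and small list medians changed sign (luminal 0.02 to -0.05 with that scaling, chemokines 0.13 to -0.07 without the third R219S library). The turn of the balance was not confined to total-count scaling. With RLE scaling, day 11 gave 4389 higher and 4526 lower, WT against EV 5778 and 5169, and R219S against EV 4652 and 4204. At day 1 it also came with only the compared groups in the fit (5038, 5767) and with no filter on low counts (5234, 5298). At day 0 only total-count scaling turned it. At day 1 all 213 named genes kept their call under RLE scaling, no filter on low counts, the replicate block, a fit of the compared groups alone and each left-out replicate, and so did the 188 tested under the stricter filter. Total-count scaling added Cdh1, and DESeq2 lost Cyp2c29 and Lum. The stricter filter tested 11799 genes instead of 18176, and with it 627 genes were higher and 748 lower by at least 2-fold instead of 1392 and 1975; it also left fewer members of many lists. Leaving out each replicate gave 5171 to 5457 genes higher and 4863 to 5152 lower at day 1, 1322 to 1415 and 1832 to 2044 of them by at least 2-fold. The change of Mki67 from day 0 to day 1 (0.18, adjusted p = 0.22, edgeR) passed without the second R219S library of day 0 (0.29, adjusted p = 0.035).

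The labels do not tie the replicate numbers across constructs, and the main fit did not pair the libraries. At day 1 the deviations of R219S and WT libraries with the same number correlated at -0.289, 0.045 and 0.216 across 11798 genes. Those with different numbers correlated at -0.352 to 0.322. Such values cannot decide if the libraries are paired, since the deviations within a group of 3 sum to 0. The fit with the replicate block gave 5566 genes higher and 5291 lower at day 1.

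Depth limits the genes near 0, whose folds are bounds or have wide intervals, and the strand setting is unknown, so reads of overlapping antisense genes cannot be told apart.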
